A study of Homo sapiens with 10 samples.

Results

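The 9 transcript clusters described here were higher in HEK293T cells that received the SAM activator than in cells of each of the other 4 groups. They carry the numbers 29573, 1988, 25068, 15459, 1305, 23753, 5307, 4452 and 10017 in a list of 31848 clusters. A cluster is a set of transcripts that RSEM, the program that estimated the reads, counted as 1 gene. The 9 were chosen by these same values, the counts of these 10 libraries: a cluster entered when SAM exceeded VP64, VPR, Suntag and the guide-only control each by at least 2-fold with an adjusted p under 0.05, in edgeR's quasi-likelihood test with Benjamini-Hochberg adjustment. Of 13241 clusters with enough counts to be tested, 11 met this rule, 0.0831%, and the 9 are those left when clusters 4232 and 29063 are set aside. For a single group the same call, SAM higher by at least 2-fold, was met by 0.551% of the tested clusters against the control, 0.355% against VP64, 0.491% against VPR and 0.257% against Suntag. The differences of SAM from the other groups are therefore given as descriptions, without a test.

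HEK293T is a human embryonic kidney line. By lipid transfection, all 5 groups received a guide RNA for the fetal globin gene HBG1, and the groups are named by the activator. VP64, VPR, SAM and Suntag are the 4 activators built on dead Cas9, and the last group is labelled as guide only, with no activator named. Each group has 2 libraries of poly(A) RNA, 10 in all. Nothing in the labels tells if a pair was grown in different dishes, and p-values therefore cover no more than the spread within such pairs, which may be technical. The labels give neither the time after transfection nor a selection of transfected cells. In RNA from whole cultures, more cells with a transcript and more of it per cell cannot be told apart.

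Dead Cas9 keeps the guided binding of Cas9 to DNA but does not cut, so a guide placed near a promoter can bring an activation domain there. In VP64 the domain, of viral origin, is fused to the protein, and VPR adds the p65 and Rta domains to it. Suntag carries a peptide array that antibody fragments fused to VP64 bind. SAM places RNA hairpins in the guide, and these recruit a phage coat protein fused to the activation domains of p65 and of HSF1, the heat shock factor. The changed guide is thus part of SAM, and it cannot be told apart from the recruited domains here. The series compares the activators with each other, and RNAs that only one of them raises are part of that comparison.

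The files do not pair the clusters with gene names. Their 9 rows hold 31 transcript identifiers, and 0 of the 31 were found in the reference tables at hand. No function, position or sequence is given for them for that reason, and neither the cell line's own markers nor whether HBG1 is among the 9 could be checked. The clusters of 1 transcript are 10017 (uc002baw.3), 23753 (uc003nbs.3) and 25068 (uc003qcz.3). The others have 2 transcripts (15459, with uc002pkx.3, and 1988, with uc001fyt.4), 3 (29573, with uc004ajd.3), 4 (5307, with uc001otj.4), 6 (1305, with uc001dzo.2) and 11 (4452, with uc001mpp.3). They lie far apart in the list, with at least 683 places between any pair.

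Library totals ran from 3316534 to 7447949 expected counts, and the SAM libraries, with 3434486 and 4435296, were among the smaller ones. An expected count is RSEM's estimate of the reads from a cluster, and it is not whole where reads were divided between clusters. CPM is that count with each library scaled to a total of 1000000, and TPM, the deposited per-length unit, divides by the effective transcript length as well. Ratios of CPM use counts and totals summed over a group, and can differ from the ratio of the printed means. Their intervals are exact for counting error and cover nothing else. Values for a group are written with replicate 1 first.

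The 9 clusters were rare RNAs. Their mean over the 10 libraries ran from 1.47 CPM for cluster 29573 to 10.9 CPM for cluster 10017. In the control, between 0.302% and 22.5% of the tested clusters had a lower level than each of them, and the median tested cluster stood at 27.3 CPM. Their mean lengths ran from 1515 nt to 8554 nt, with a median of 2964 nt against 2871 nt over all tested clusters. Summed, they made up 87.0 and 81.4 CPM in the SAM libraries and 21.1 to 27.1 CPM in the other 8. Both SAM libraries lay above all 8 others for 9 of 9 clusters in CPM and in TPM, an order that the choice of the clusters all but fixes and that 12.5% of all tested clusters showed in CPM.

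**Figure D1:**
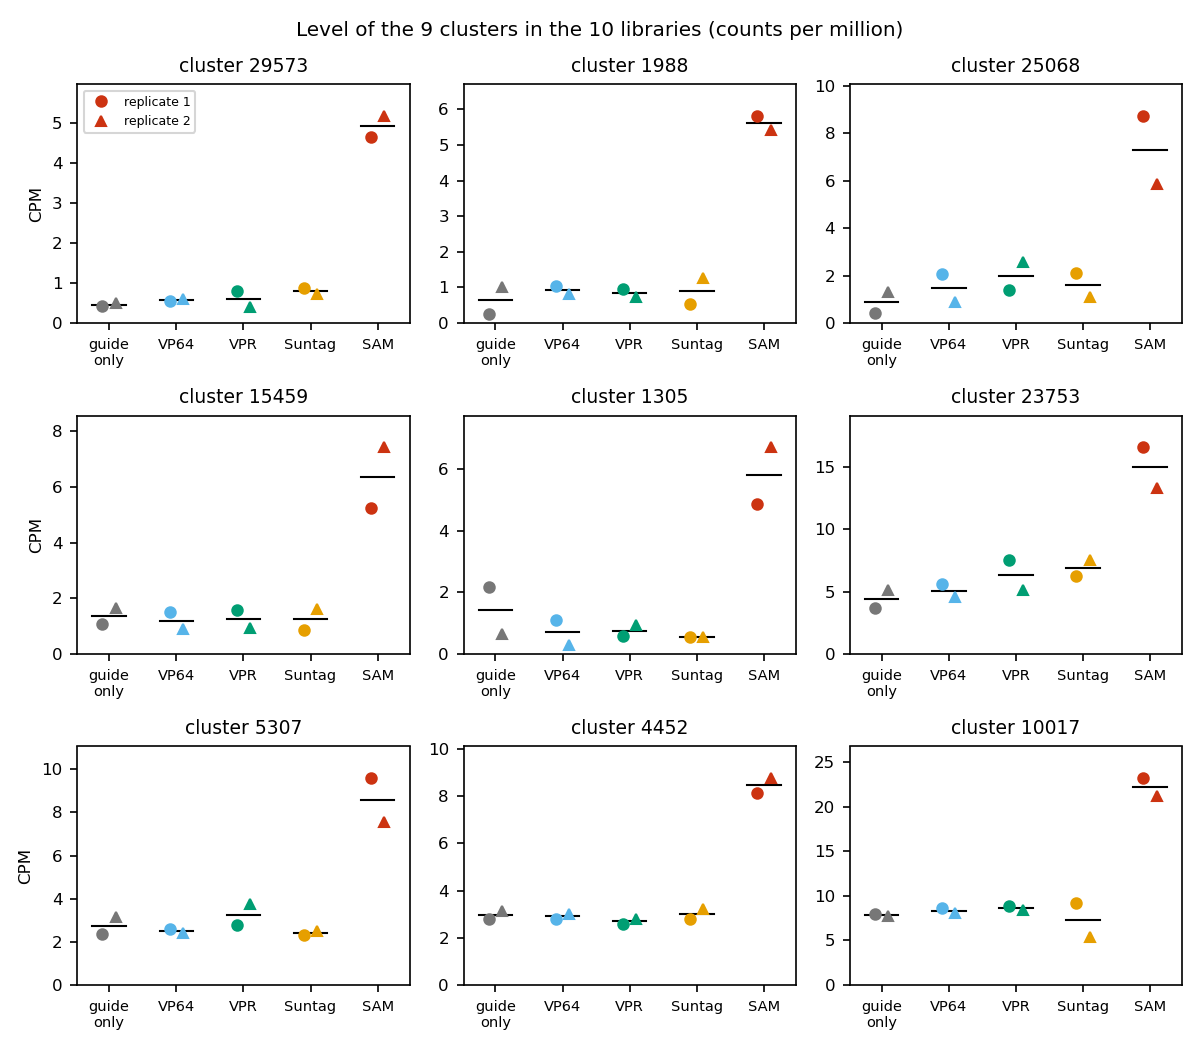
Level of each of the 9 clusters in CPM (vertical axis, from 0) by group; circles are replicate 1, triangles replicate 2 and lines the mean of the 2. Both SAM libraries lie above the other 8 in every panel. The spread of the other 8 differs by cluster, narrow in 4452 (2.57 to 3.23 CPM) and wide in 1305 (0.302 to 2.16 CPM).

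Clusters 29573, 1988 and 25068 had the largest ratios to the control. The expected counts of cluster 29573 were 16 and 23 for SAM, 3 and 2 for VP64, 4 and 3 for VPR, 5 and 4 for Suntag, and 2 and 3 for the control, all of them whole. In CPM these were 4.66 and 5.19 for SAM, 0.561 and 0.603 for VP64, 0.792 and 0.403 for VPR, 0.872 and 0.717 for Suntag, and 0.429 and 0.494 for the control. TPM was 5.41 and 5.13 for SAM, 0.58 and 0.53 for VP64, 0.77 and 0.40 for VPR, 0.88 and 0.75 for Suntag, and 0.45 and 0.46 for the control. The SAM libraries were close to each other and the other 8 libraries never exceeded 0.872 CPM. SAM stood at 4.92 ± 0.373 CPM and the control at 0.462 ± 0.0458 CPM (SD, n = 2 each). The ratio of SAM to the control was 10.6 (95% exact interval 4.19 to 34.6). Its smallest ratio was to Suntag, at 6.23 (95% exact interval 2.97 to 14.6).

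For cluster 1988 the expected counts were 20 and 24.04 for SAM, 5.60 and 2.74 for VP64, 4.87 and 5.48 for VPR, 3.01 and 7.07 for Suntag, and 1.18 and 6.16 for the control. Whole counts were found in 2 of the 10 libraries, so part of these reads was shared with other clusters. The CPM values were 5.82 and 5.42 for SAM, 1.05 and 0.826 for VP64, 0.964 and 0.736 for VPR, 0.525 and 1.27 for Suntag, and 0.253 and 1.01 for the control. The control and Suntag replicates were the farthest apart outside SAM, and all 8 libraries lay at 1.27 CPM or less. TPM came to 2.86 and 2.60 for SAM, 0.50 and 0.38 for VP64, 0.43 and 0.34 for VPR, 0.25 and 0.61 for Suntag, and 0.12 and 0.50 for the control. SAM averaged 5.62 ± 0.285 CPM against 0.634 ± 0.538 for the control libraries (SD, n = 2 each), and the ratio was 8.57 (95% exact interval 3.83 to 22.6). That ratio rests on 7 control counts: it was 5.66 without control replicate 1. Without control replicate 2, with 1 count left, it was 26.0 (95% exact interval 4.44 to 1052).

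The counts of cluster 25068 were 30 and 26 for SAM, 11 and 3 for VP64, 7 and 19 for VPR, 12 and 6 for Suntag, and 2 and 8 for the control, all whole. In CPM they were 8.73 and 5.86 for SAM, 2.06 and 0.905 for VP64, 1.39 and 2.55 for VPR, 2.09 and 1.08 for Suntag, and 0.429 and 1.32 for the control. SAM replicate 1 was 1.49 times replicate 2, and VPR replicate 2 was the highest library outside SAM. TPM was 8.13 and 5.30 for SAM, 1.85 and 0.80 for VP64, 1.18 and 2.22 for VPR, 1.86 and 0.98 for Suntag, and 0.40 and 1.23 for the control. SAM averaged 7.30 ± 2.03 CPM and the control 0.873 ± 0.628 CPM (SD, n = 2 each). From summed counts the ratio was 7.64 (95% exact interval 3.86 to 16.8). Without control replicate 2, with 2 counts left, the ratio was 16.6 (95% exact interval 4.38 to 140.2). Against VPR the ratio was smaller, at 3.42 (95% exact interval 2.11 to 5.67).

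Clusters 15459 and 1305 followed, each at about the same multiple of the control. The counts of cluster 15459, all whole, were 18 and 33 for SAM, 8 and 3 for VP64, 8 and 7 for VPR, 5 and 9 for Suntag, and 5 and 10 for the control. Its CPM values were 5.24 and 7.44 for SAM, 1.49 and 0.905 for VP64, 1.58 and 0.940 for VPR, 0.872 and 1.61 for Suntag, and 1.07 and 1.65 for the control. In TPM the values were 3.66 and 5.26 for SAM, 1.01 and 0.67 for VP64, 1.01 and 0.68 for VPR, 0.58 and 1.10 for Suntag, and 0.83 and 1.23 for the control. SAM replicate 2 was the higher of the SAM pair, and no library outside SAM passed 1.65 CPM. Mean levels were 6.34 ± 1.56 CPM for SAM and 1.36 ± 0.406 CPM for the control (SD, n = 2 each). The ratio was 4.64 (95% exact interval 2.57 to 8.88), and the ratios to the 4 groups were alike, from 4.64 to 5.40.

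Expected counts of cluster 1305, not whole in 6 libraries, were 16.74 and 29.80 for SAM, 5.98 and 1 for VP64, 3 and 6.92 for VPR, 3.18 and 3 for Suntag, and 10.08 and 4 for the control. The levels in CPM were 4.87 and 6.72 for SAM, 1.12 and 0.302 for VP64, 0.594 and 0.929 for VPR, 0.555 and 0.538 for Suntag, and 2.16 and 0.659 for the control. Outside SAM the control replicate 1 library stood highest, above all libraries of VP64, VPR and Suntag. TPM was 4.13 and 5.83 for SAM, 1.19 and 0.32 for VP64, 0.50 and 0.82 for VPR, 0.58 and 0.48 for Suntag, and 1.97 and 0.62 for the control. SAM averaged 5.80 ± 1.30 CPM and the control 1.41 ± 1.06 CPM (SD, n = 2 each). From summed counts the ratio was 4.58 (95% exact interval 2.48 to 9.0). It was 9.07 without control replicate 1 and 2.78 without control replicate 2, so the multiple of the control depends on which control library is used. Against the other activators the ratio was 7.40 to VP64, 7.46 to VPR and 11.3 to Suntag.

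The remaining 4 clusters had more counts and smaller ratios. Cluster 10017, of 1 long transcript of 8290 nt, was the most abundant in CPM, with whole counts of 80 and 94 for SAM, 46 and 27 for VP64, 45 and 63 for VPR, 53 and 30 for Suntag, and 37 and 47 for the control. Its CPM values were 23.3 and 21.2 for SAM, 8.60 and 8.14 for VP64, 8.91 and 8.46 for VPR, 9.24 and 5.38 for Suntag, and 7.94 and 7.74 for the control. Per length it was not the most abundant, with TPM values of 5.90 and 5.25 for SAM, 2.11 and 1.96 for VP64, 2.06 and 2.01 for VPR, 2.24 and 1.34 for Suntag, and 1.99 and 1.96 for the control. Suntag was the one group whose replicates differed widely here, and both lay within the range of 5.38 to 9.24 CPM that held all 8 libraries outside SAM. SAM reached 22.2 ± 1.48 CPM against 7.84 ± 0.142 CPM for the control (SD, n = 2 each). The ratio was 2.82 (95% exact interval 2.16 to 3.71), and the ratios of SAM to the 4 groups ran from 2.56 to 3.01.

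Cluster 23753, of 1 transcript of 1515 nt, had whole counts, which were 57 and 59 for SAM, 30 and 15 for VP64, 38 and 38 for VPR, 36 and 42 for Suntag, and 17 and 31 for the control. In CPM it stood at 16.6 and 13.3 for SAM, 5.61 and 4.52 for VP64, 7.53 and 5.10 for VPR, 6.28 and 7.53 for Suntag, and 3.65 and 5.11 for the control. It was the most abundant of the 9 per length, with TPM values of 24.61 and 19.10 for SAM, 8.02 and 6.39 for VP64, 10.18 and 7.08 for VPR, 8.83 and 10.85 for Suntag, and 5.40 and 7.61 for the control. The gap between SAM and the rest was narrowest here, since the lower SAM library was 1.77 times the highest other one, a Suntag library. SAM averaged 14.9 ± 2.33 CPM, Suntag 6.90 ± 0.883 CPM and the control 4.38 ± 1.03 CPM (SD, n = 2 each). The ratio of SAM was 3.30 (95% exact interval 2.33 to 4.71) to the control and 2.14 (95% exact interval 1.59 to 2.89) to Suntag.

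For cluster 4452, which groups 11 transcripts, the whole counts were 28 and 39 for SAM, 15 and 10 for VP64, 13 and 21 for VPR, 16 and 18 for Suntag, and 13 and 19 for the control. The CPM values were 8.15 and 8.79 for SAM, 2.80 and 3.02 for VP64, 2.57 and 2.82 for VPR, 2.79 and 3.23 for Suntag, and 2.79 and 3.13 for the control. TPM was 2.23 and 1.94 for SAM, 0.53 and 0.73 for VP64, 0.51 and 0.88 for VPR, 0.64 and 0.80 for Suntag, and 0.69 and 0.80 for the control. The 8 libraries outside SAM lay in a narrow range of 2.57 to 3.23 CPM, and the ratios of SAM to the 4 groups ran from 2.83 to 3.13. The ratio to the control was 2.86 (95% exact interval 1.85 to 4.50), and the mean levels were 8.47 ± 0.453 and 2.96 ± 0.240 CPM (SD, n = 2 each).

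Cluster 5307 had counts that were not whole in 3 libraries, and they were 33 and 33.40 for SAM, 14.01 and 8.01 for VP64, 14 and 27.88 for VPR, 13.27 and 14 for Suntag, and 11 and 19 for the control. In CPM these were 9.61 and 7.53 for SAM, 2.62 and 2.42 for VP64, 2.77 and 3.74 for VPR, 2.31 and 2.51 for Suntag, and 2.36 and 3.13 for the control. TPM was 6.54 and 3.18 for SAM, 0.71 and 1.24 for VP64, 1.12 and 0.98 for VPR, 1.01 and 0.67 for Suntag, and 0.83 and 0.76 for the control. The SAM replicates were closer in CPM than in TPM, where replicate 1 was far above replicate 2 and the library next below was VP64 replicate 2. SAM averaged 8.57 ± 1.47 CPM and the control 2.74 ± 0.543 CPM (SD, n = 2 each). From summed counts the ratio was 3.0 (95% exact interval 1.92 to 4.79), while the ratio of mean TPM was 6.11.

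That gap between units goes with the transcript length that RSEM assigned. For a cluster of several transcripts this length is a mean weighted by their estimated shares, so it moves when the estimated mix does. For cluster 5307 it was 3157 and 4907 nt for SAM, 7556 and 3961 for VP64, 4814 and 7513 for VPR, 4644 and 7728 for Suntag, and 5968 and 8602 nt for the control. SAM replicate 1 had the shortest value, but SAM replicate 2 lay within the range of the others, and the VP64 replicates differed by 3595 nt, so the groups overlapped. In the other 8 clusters the ratio of mean TPM was 0.84 to 1.09 times the ratio from summed counts. That quotient mixes the effect of length with the step from summed counts to means. Length was constant for 4 clusters, among them 1988, whose length was 4332 nt in every library.

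**Figure D2:**
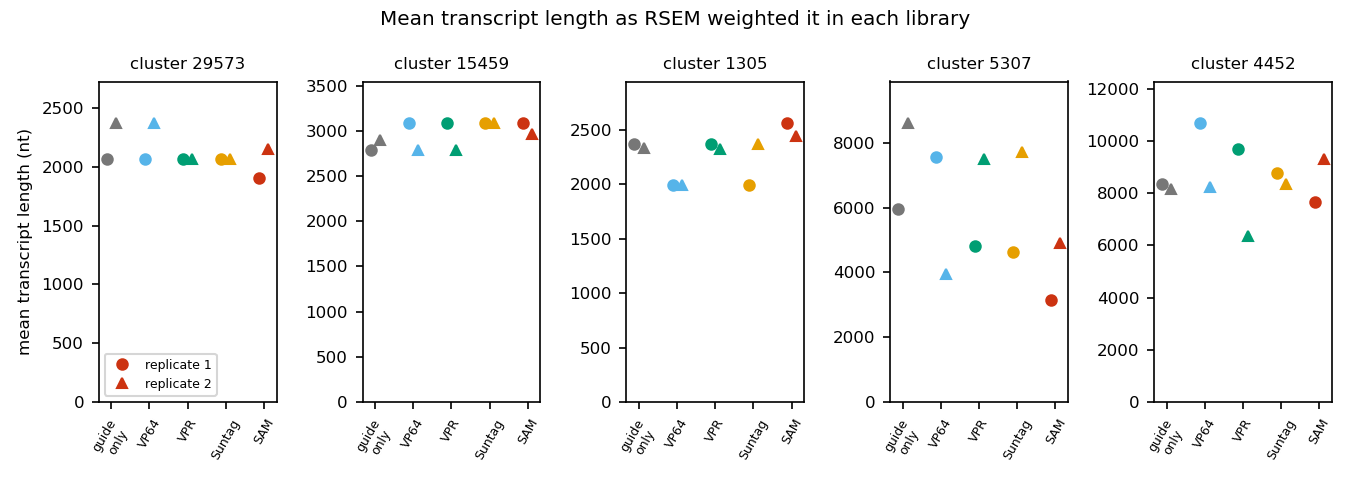
Mean transcript length in nt (vertical axis, from 0) as RSEM weighted it in each library, for the 5 clusters in which it varied; circles are replicate 1 and triangles replicate 2. In cluster 5307 SAM replicate 1 is lowest at 3157 nt, and the replicates of the other groups are far apart.

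Reads shared with other rows bear on clusters 1305, 1988 and 5307. Of the 90 values of the 9 clusters, 17 were not whole within 0.01, and all 17 belonged to these 3, while 6 clusters had whole counts in all 10 libraries. Sums with every run of up to 3 rows on either side in the list were examined, and in no run were all 10 sums whole within 0.05. The closest run left a distance of 0.26 for cluster 1305, 0.47 for 1988 and 0.40 for 5307. No single other row of the list completed them either, with closest distances of 0.13, 0.19 and 0.11. Which clusters share these reads was thus not found, and the levels of these 3 are uncertain to that extent. Summed with the row below and the row above, cluster 1305 had 556 counts in SAM and 600 in the control, a ratio of 1.26 (95% exact interval 1.12 to 1.42). For 1988 that sum gave 2507 and 3590 counts, a ratio of 0.952 (0.905 to 1.0), and for 5307 it gave 405 and 529, a ratio of 1.04 (0.915 to 1.19). In each sum at least 1 neighbour was far more abundant than the cluster itself. In SAM these were row 1306 (437 counts), rows 1987 and 1989 (893 and 1570) and row 5306 (337). The other neighbours, rows 1304 and 5308, held 72 and 2 counts. The sums thus mainly carry the levels of the abundant neighbours.

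The rows listed beside the 9 clusters were tested in the same fit. Of 54 rows within 3 places, 26 had enough counts to be tested, and edgeR called 0 of the 26 for SAM against the control, against 5.2% of all tested clusters. At an unadjusted p under 0.05 there were 7, while 21.4% of all tested clusters passed that mark, and DESeq2, which gave an adjusted p for 11 of the 26, called 0. Their log2 changes ran from -0.49 to 0.86 with a median of -0.09. The highest was row 5305, 2 places before cluster 5307, at 0.86 ± 0.30 (SE, edgeR adjusted p = 0.111). That row, whose counts were not whole, was called for SAM against Suntag, at 1.57 ± 0.32 (SE, edgeR adjusted p = 0.0301), and differed from VPR by -0.18 (edgeR adjusted p = 0.743). Row 1985, 3 places before cluster 1988, was called lower for SAM against VPR, at -0.43 ± 0.12 (SE, edgeR adjusted p = 0.0436). These were the 2 calls among the 26 rows over the comparisons of SAM with VP64, VPR and Suntag, in which 4.29%, 5.68% and 1.72% of all tested clusters were called. Row 10018, next after cluster 10017 and too rare to be tested, was singled out after its values were seen. It held 6 and 11 counts for SAM, 0 and 1 for VP64, 3 and 4 for VPR, 2 and 3 for Suntag, and 2 and 3 for the control, all whole. Its ratio of SAM to the control was 4.64 (95% exact interval 1.64 to 16.1), and the sum of both rows gave 2.93 (2.26 to 3.81) against 2.82 for cluster 10017 alone. Other untested rows beside the 9 also had more counts in SAM than in the control, and some had fewer.

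**Figure D3:**
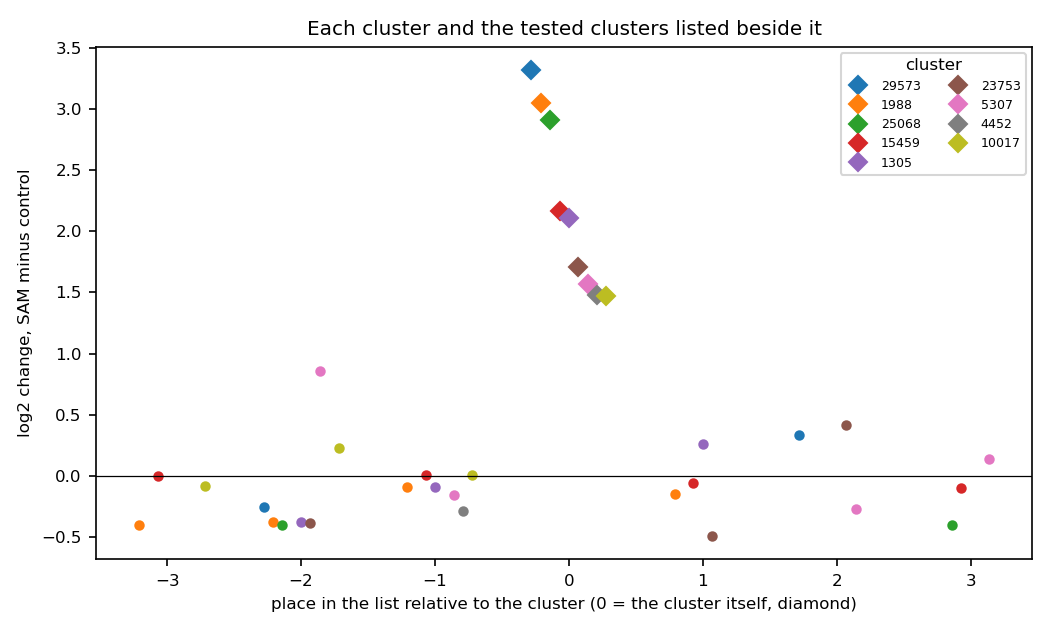
Log2 change of SAM against the control (vertical axis) for each of the 9 clusters (diamonds at 0) and for the tested rows up to 3 places before or after it in the list (dots of the same colour). The clusters lie between 1.47 and 3.32 and the rows beside them between -0.49 and 0.86.

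The rule did not compare VP64, VPR or Suntag with the control, but it used their values, since SAM had to exceed each group by 2-fold. Clusters with a large rise in another activator were thus less likely to be chosen. SAM also had to exceed the control, so clusters with low control values were favoured, which raises the other changes against that control. The counts and medians that follow describe the 9 only. edgeR called 0 of the 9 clusters in VP64 against the control, 0 in VPR and 0 in Suntag. Over all tested clusters 0.816%, 6.6% and 1.33% were called. At an unadjusted p under 0.05 there were 0 in VP64, 0 in VPR and 1 in Suntag, against 14.4%, 22.0% and 15.6% of all tested clusters. DESeq2 gave no adjusted p for any of the 9 in these comparisons, and with its filter on the mean count turned off it called 0. The comparisons share the control libraries, and 4 of the clusters, 29573, 1988, 15459 and 1305, passed the filter on low counts only through SAM. For these 4 the counts of 0 are a description and no test. The median log2 change over the 9, for VP64, VPR and Suntag in this order, was 0.16, 0.33 and 0.05, and over all tested clusters it was -0.00197, -0.0164 and 0.000814.

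The single values show how far a change in the other activators was or was not measurable. Cluster 10017 was bounded most tightly, with ratios to the control of 1.08 (95% exact interval 0.775 to 1.49) in VP64, 1.10 (95% exact interval 0.822 to 1.49) in VPR and 0.937 (95% exact interval 0.684 to 1.28) in Suntag. For cluster 4452 they were 0.967 (95% exact interval 0.550 to 1.68), 0.912 (95% exact interval 0.546 to 1.53) and 1.01 (95% exact interval 0.603 to 1.69), and for cluster 5307 0.908 (95% exact interval 0.499 to 1.63), 1.2 (95% exact interval 0.735 to 1.99) and 0.854 (95% exact interval 0.488 to 1.49), in the same order. None of these 9 intervals reached the ratio of SAM to the control of the same cluster. The rule favoured such a gap, since SAM had to exceed each of these activators by 2-fold. Counting error is the only error the intervals cover.

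Cluster 23753 was the one with an unadjusted p under 0.05 in any of these comparisons. Its level was 4.38 ± 1.03 CPM in the control, 5.06 ± 0.766 in VP64, 6.31 ± 1.71 in VPR and, highest of these, 6.90 ± 0.883 in Suntag (SD, n = 2 each). Both Suntag libraries were above both control libraries, and the log2 difference was 0.66 ± 0.29 (SE, edgeR unadjusted p = 0.0345, adjusted p = 0.273), which did not pass the threshold. The VPR values overlapped those of the control, at 0.55 ± 0.29 (SE, edgeR adjusted p = 0.286). Cluster 25068 stood at 1.97 ± 0.824 CPM in VPR, where both libraries exceeded both control libraries, and the log2 difference was 1.2 ± 0.62 (SE, edgeR adjusted p = 0.271). It rested on 26 counts in VPR against 10 in the control.

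Clusters 1305 and 15459 had lower means than the control in all 3. Cluster 1305, which passed the filter on low counts only through SAM and is given without a test, had log2 differences for VP64, VPR and Suntag of -0.66 ± 0.75, -0.65 ± 0.69 and -1.25 ± 0.76 (SE). The VP64 and VPR values overlapped those of the control, and both Suntag libraries lay under both control libraries. For clusters 29573, 1988 and 15459 the counts, 5 to 15 in each of these groups, bound little. In Suntag the ratio to the control was 1.71 (95% exact interval 0.514 to 6.48) for cluster 29573, 1.35 (95% exact interval 0.466 to 4.19) for cluster 1988 and 0.885 (95% exact interval 0.396 to 1.97) for cluster 15459. The intervals of the former 2 include a 2-fold rise.

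**Figure D4:**
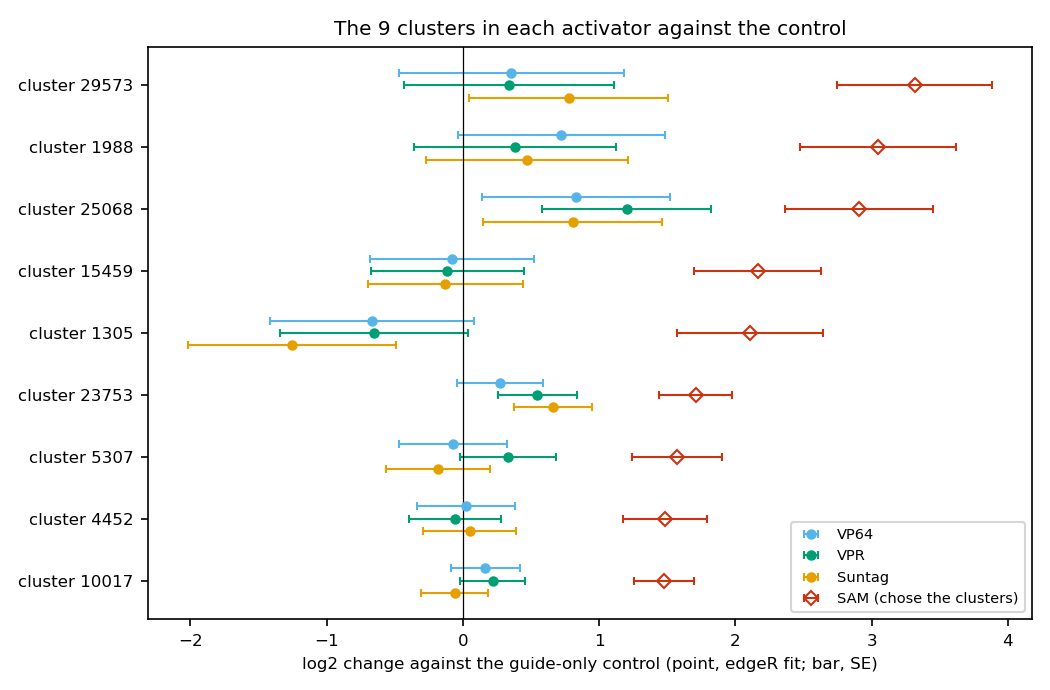
Log2 change against the guide-only control (horizontal axis) of each of the 9 clusters in VP64, VPR and Suntag (dots) and in SAM (open diamonds, the comparison that chose them); bars are SE from the edgeR fit. The dots lie between -1.25 and 1.2 and none passed the adjusted threshold, and the diamonds lie between 1.47 and 3.32. Clusters 29573, 1988, 15459 and 1305 passed the filter on low counts only through SAM.

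Some clusters met the rule narrowly. The smallest log2 difference of SAM from any other group was 1.04 for cluster 23753, against Suntag, and 2.54 for cluster 29573, also against Suntag. The largest adjusted p of edgeR over the 4 comparisons was 0.0084 for cluster 10017 and 0.0291 to 0.0467 for the other 8. Among clusters with all 4 adjusted p of edgeR under 0.05 that missed the 2-fold mark, the nearest 2 had smallest log2 differences of 0.99. Their total number is not given here. In all, 69 clusters exceeded 2-fold against each group but missed the adjusted p of edgeR in at least 1 of the 4, the nearest at 0.0507.

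The choice also rested on single libraries. With both SAM libraries above the other 8, leaving out 1 could not turn the direction, and few of the 9 kept all 4 adjusted p under 0.05. None did without VP64 replicate 1 or 2, VPR replicate 1, or SAM replicate 1 or 2. There was 1 without Suntag replicate 2 or control replicate 1, 2 without VPR replicate 2 or control replicate 2, and 5 without Suntag replicate 1. DESeq2 without its filter on the mean count, an alternative chosen after seeing the data, called 0 of the 9 against all 4 groups.

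Among tested clusters outside the 9, the profile over the 10 libraries most like their mean was that of cluster 29286, with a Pearson correlation of 0.985 in log2(CPM + 1), and then cluster 29063, also at 0.985. The 10 points share the contrast of 2 SAM libraries with 8 others that chose the 9, so this describes the profile only. Cluster 29286 stood at 314 and 293 CPM in SAM and 166 to 187 CPM in the other 8 libraries, a far more abundant RNA with a smaller ratio. Its counts were not whole. Of the 9, cluster 29573 followed the mean of the other 8 most closely, at 0.976, and cluster 1305 least, at 0.86.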

How the data were processed

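Poly(A) RNA-seq of 10 HEK293T libraries in 5 groups of 2 was used, with groups and replicate numbers from the sample titles. Per the submitters' processing notes, the authors' tables came from RSEM 1.2.1 on hg19, and no annotation is named there. Each deposited table, per the file headers, holds an expected count, a TPM, an FPKM and a transcript length per cluster. The deposited FPKM was not used.

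The test was edgeR's quasi-likelihood test (edgeR 4.0.16 in R 4.3.3) on rounded expected counts, after filterByExpr and with TMM factors, in 1 fit of all libraries, with Benjamini-Hochberg adjustment over 13241 clusters and a threshold of 0.05. SE is the log2 change over the square root of F. The fit was first tested on simulated data. Ratios use counts, rounded after summing, and totals summed over a group. With 2 libraries a group an exact permutation test cannot pass the threshold, so tests rest on this model. DESeq2 1.42.0 was an alternative.

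The 9 clusters, the lists and the alternatives were chosen with earlier results of these data known. All 9 are named, with the 2 other clusters whose profile correlated best with their mean; rows 1985, 5305 and 10018 were singled out after their values were seen. Gene lists for heat shock genes, globins and activator components could not be tested without names. Tagmentation libraries carry no strand, so overlapping genes cannot be told apart.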

Additional observations from a re-analysis of the deposited data

How the results depend on the processing

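The count of 0 of the 9 clusters called in VP64, VPR or Suntag against the control was 0 under every alternative that gave a value. The rule made clusters with a large rise in another activator less likely to be chosen, so this 0 had little room to change. For clusters 29573, 1988, 15459 and 1305, which passed the filter on low counts only through SAM, it is a description and no test. DESeq2 with its filter on the mean count gave no adjusted p for any of the 9. The number of the 9 that met the rule was 9 with RLE factors and without the filter on low counts, 6 with only the compared groups in the fit, 7 with the length trend removed, 0 with DESeq2 without its filter on the mean count, and 0 to 5 without 1 library. The number of all clusters called moved far more. For VP64, VPR and Suntag it was 108, 874 and 176 in the fit reported. It was 533, 1388 and 590 with no filter on low counts, and 19, 86 and 14 with the length trend removed. With only the compared groups it was 617 for VP64 and 24 for Suntag, and DESeq2 called 529 for VPR. Leaving out 1 library moved it from 0 to 362, from 143 to 1332 and from 7 to 376. In these fits the lone library left in a group is assumed to vary like the other groups. The cause of these shifts was not tested.

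With the replicate number as a block, 7 of the 9 met the rule (not 23753 and 25068), and the block gave 68 calls for VP64, 764 for VPR and 108 for Suntag. Deviations of same-numbered libraries had correlations of -0.066 to 0.050 over the 10 pairs of groups, so the numbers give no sign of pairing. The ratio of SAM to the control was recalculated 54 times over the 9 clusters, without 1 library, with TPM or with TMM-scaled totals. It ran from 2.66 to 26.0. Of the 54 values, 41 moved by less than 1 SD of the 2 SAM libraries and 13 by more. Leaving out 1 of these same 2 libraries all but cannot move the ratio by that SD, so the 41 do not measure stability. Leaving out a control library could move it far, for cluster 1988 to 5.66 or 26.0. The direction of the ratio was fixed by the choice of the clusters. No sum with rows that share reads could be given, since no such rows were found. Depth limits the 4 rarest clusters, with 5 to 15 counts in each group outside SAM.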
